A study of Macaca mulatta with 24 samples.

Results

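DNA damage signalling and repair genes were followed in the ileum of *Rhesus macaque* after total-body irradiation (TBI). The group was a list of 50 genes that covers the damage kinases, the proteins that recognise DNA breaks and the main repair pathways. A gene was included when its symbol had a probe in the deposited annotation of the array, and it was represented by the probe that was brightest over all 24 arrays. A probe was found for 37 of the 50 genes, and all 37 were well above background on each of the 24 arrays and were tested. The other 13 (CHEK1, BRCA2, BRIP1, RAD52, FANCC, FANCD2, FANCL, XRCC4, PRKDC, ERCC2, ERCC5, PMS2 and POLH) were not analysed here.

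Cells answer a DNA double-strand break by activating the kinases ATM and ATR, which phosphorylate checkpoint kinases, histones and repair proteins. Breaks are then repaired by homologous recombination, which needs a sister chromatid, or by end joining, which does not, while damaged bases and single-strand breaks are handled by base excision repair. Much of this response runs through modification of proteins that are already present, and genes of homologous recombination and the Fanconi anaemia pathway are transcribed mainly in cells that copy their DNA. The crypts of the ileum hold rapidly dividing cells and are among the tissues most sensitive to radiation.

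The animals were young-adult males that received a single uniform gamma-ray dose of 6.7 Gy or 7.4 Gy to the whole body, called the lower and the higher dose below, or a sham exposure. The 7 groups were 4 unirradiated controls and, for each dose, 4 animals killed on day 4, 4 on day 7 and 2 on day 12. The same 4 controls, which are labelled as day 4, served all comparisons with controls. About 3 cm of ileum was taken from each animal and its total RNA hybridized to 1 single-color array, so that epithelium, muscle and blood cells were measured together. In such bulk tissue, fewer cells of a type and less RNA per cell cannot be told apart.

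Signals are given as log2 of the intensity minus the 75th percentile of the array, so that a gene at 0 is as bright as that percentile, and a difference of 1 is a 2-fold change. A gene passed the test at limma's adjusted p under 0.05, adjusted over all 36108 tested probes. Between 72.7% and 88.1% of the probes were well above background on an array. The labelled tissue was checked by its markers, and at least 6 of 7 enterocyte markers and all 4 smooth muscle markers were above background on every array. Control replicate 1 stood apart with a summed smooth muscle signal of 88.8 against 428.8 to 476.2 in the other controls, in units of the 75th percentile of the array. Replicate 4 of the lower dose on day 4 stood apart with the lowest enterocyte sum (178) and the highest sum of the 13 cycling cell markers (73.5), which was 24.9 to 29.3 in the controls. Values without both arrays are given for each call that was lost without them. Without both, the calls of APEX1 and BRCA1 from day 4 to day 7 and of APEX1, ATR, FANCI, PARP1, OGG1 and ERCC1 from day 4 to day 12 were kept, and from day 4 to day 7 BARD1 passed in addition with doses averaged and PALB2 at the higher dose. The arrays of each slide also have a position, and all controls were at position 1. Day 4 arrays were at positions 1 and 2 after the lower dose and all at position 2, which held no control, after the higher dose. Day 7 arrays were at position 3 after the lower dose and at positions 3 and 4 after the higher dose. Day 12 arrays were at position 4. A difference of day 7 or day 12 from the controls or from day 4 therefore cannot be told apart from array position.

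APEX1, the main endonuclease of base excision repair, was the only one of the 37 genes that passed against the controls in a single group. It did so on day 4 after both doses, with a rise of 1.92-fold after the lower and 1.82-fold after the higher dose. Neither call was kept with array position as a term in the fit. The call after the lower dose was also lost with the methods' t-test and with a fit of only the arrays compared. On day 4, 1 of 37 genes was higher after the lower dose and none lower, where 1.38% of all probes were higher and 1.23% lower. After the higher dose, 1 of 37 was higher and none lower, where 3.55% of all probes were higher and 3.1% lower. The median change of the 37 genes on day 4 was 0.11 and 0.07 on the log2 scale, against -0.10 and -0.07 for all tested probes, and 24 of 37 genes had a mean above the controls after each dose. With both doses averaged, a comparison chosen after seeing the data, 2 genes rose on day 4 (APEX1 and FANCI) and 1 fell (ERCC1), where 4.58% of all probes were higher and 4.66% lower.

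On days 7 and 12 no member passed limma's test against the controls. On day 7, 0 of 37 passed at each dose (0.449% of all probes after the lower and 0.978% after the higher dose). At an unadjusted p under 0.05 there were 7 genes at each dose, a share to be read beside 9.36% and 13.4% of all probes. On day 12, 0 of 37 passed (0.155% and 0.0499% of all probes), with 3 and 5 genes at an unadjusted p under 0.05 (8.98% and 8.13% of all probes). The methods' t-test gave 8 and 7 genes on day 7 (4064 and 4044 of the 36108 probes) and 4 and 5 on day 12 (3587 and 2643 probes) before adjustment, and 0 genes in each after it (5, 0, 0 and 1 probes). With the doses averaged, 0 of 37 passed on day 7 (1.33% of all probes) and on day 12 (0.523%), and 10 and 6 genes had an unadjusted p under 0.05 (13.5% and 9.47% of all probes). These counts do not show that the genes stayed level. The 95% interval of the change lay within 2-fold in both directions for 36 and 35 of 37 genes on day 7, and for 32 and 33 on day 12, where only 2 animals were measured at each dose.

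**Figure D1:**
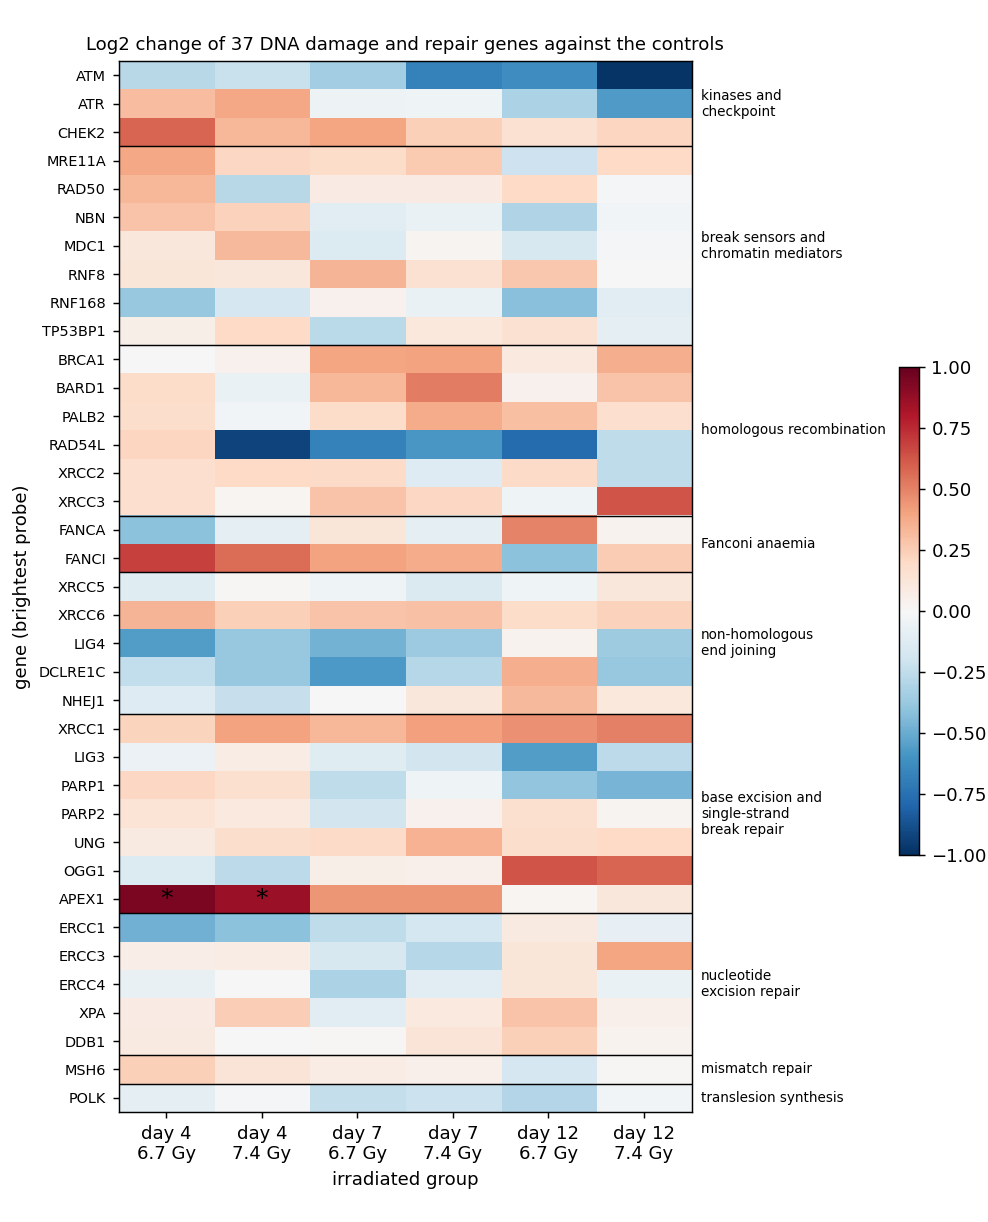
Log2 change of each of the 37 genes (rows, grouped by role) in the 6 irradiated groups (columns) against the 4 controls; red is higher and blue is lower than the controls, and a star marks limma's adjusted p under 0.05. The only stars are those of APEX1 on day 4 after both doses, at 0.94 and 0.87.

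Time points were compared with doses averaged and within each dose. From day 4 to day 7, with doses averaged, 1 gene rose (BRCA1) and 3 fell (APEX1, ATR and MDC1), where 7.63% of all probes were higher and 5.56% lower. From day 4 to day 12, 2 rose (OGG1 and ERCC1) and 5 fell (APEX1, ATR, FANCI, PARP1 and MDC1), where 10.7% of all probes were higher and 6.8% lower. Over both directions together, 4 and 7 of 37 genes were shares near those of all probes. At a single dose, 0 of 37 passed between day 4 and day 7 (1.03% of all probes after the lower and 3.79% after the higher dose). There, 5 and 7 genes had an unadjusted p under 0.05 in limma (19.1% and 18.8% of all probes), and the methods' t-test gave 4 and 7 before adjustment (5520 and 6677 probes) and 0 after it (0 and 122 probes). No member also reached a 2-fold change in any comparison in which one passed, whereas the share of all probes that did was 0.978% and 2.33% on day 4 after the lower and higher dose, 2.06% with doses averaged, 1.06% from day 4 to day 7 and 2.75% from day 4 to day 12.

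The kinases and the checkpoint kinase were measured by ATM, which is activated by double-strand breaks, by ATR, which is activated by single-stranded DNA at stalled forks, and by CHEK2, a target of ATM. ATR gave -0.64, -0.90, -1.17 and -0.59 in the controls. On day 4 it was -0.83, -0.57, -0.61 and -0.04 after the lower dose and -0.34, -0.46, -0.44 and -0.51 after the higher dose. All 4 animals of the higher dose lay above all controls, and those of the lower dose overlapped them. The change against the controls was 0.31 ± 0.18 (SE) and 0.39 ± 0.18, with adjusted p = 0.309 and 0.206. With single arrays left out these changes ran from 0.15 to 0.42 and from 0.28 to 0.47.

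On day 7 ATR was -0.90, -0.88, -0.91 and -0.83 after the lower dose and -0.58, -1.12, -1.02 and -0.74 after the higher dose. On day 12 it was -1.19 and -1.10 after the lower and -0.94 and -1.85 after the higher dose. All 4 animals of day 12 therefore lay below all 8 animals of day 4, and the controls overlapped both. ATR fell by 0.79 ± 0.16 from day 4 to day 12 (1.73-fold, adjusted p = 0.00357), and by 0.40 ± 0.13 from day 4 to day 7 (adjusted p = 0.0498). Without the 2 arrays that stood apart, the fall to day 12 was 0.72 (adjusted p = 0.00417), while that to day 7 was 0.32 and no longer passed (adjusted p = 0.085). Over the 24 omissions of a single array the change to day 12 ran from -1.02 to -0.57 and passed each time, and the change to day 7 did not pass in 18.

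The brightest probe of ATM did not pass in any comparison. Its signals were -3.24, -3.16, -3.50 and -2.93 in the controls and -3.77, -3.88, -3.74 and -4.63 in the 4 animals of day 12, all of which lay below all controls. The change was -0.28, -0.23, -0.35, -0.68, -0.62 and -0.98 over the 6 irradiated groups from day 4 to day 12, so that each group mean was below the control mean. The interval of the last, on day 12 after the higher dose, ran from -1.63 to -0.33, with adjusted p = 0.308. With single arrays left out that change ran from -1.43 to -0.53, and the change on day 4 after the lower dose from -0.46 to -0.083. After the higher dose the change then ran from -0.32 to -0.13 on day 4 and from -0.85 to -0.45 on day 7. From day 4 to day 12 the brightest probe changed by -0.55 ± 0.22 (adjusted p = 0.0862), and 2 other tested probes of ATM changed by -0.54 and -0.54, of which 1 passed (adjusted p = 0.0158).

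The brightest of 3 tested probes of CHEK2, the only one given here, was at -1.04, -1.05, -1.21 and -0.71 in the controls. It was -0.61, -0.80, -0.51 and 0.23 on day 4 after the lower dose, so that 3 of the 4 animals lay above all controls. The change was 0.58 ± 0.19 (adjusted p = 0.0941) after the lower and 0.33 ± 0.19 (adjusted p = 0.303) after the higher dose, and 0.40, 0.24, 0.15 and 0.21 in the groups of days 7 and 12. With array position as a term, the day 4 change after the higher dose turned negative. With single arrays left out, the change of 0.24 ran from 0.15 to 0.40 and that of 0.15 from 0.07 to 0.25. The value of 0.23 is that of the array with the highest cycling cell sum, and without the 2 arrays that stood apart the change after the lower dose was 0.35 (adjusted p = 0.341).

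**Figure D2:**
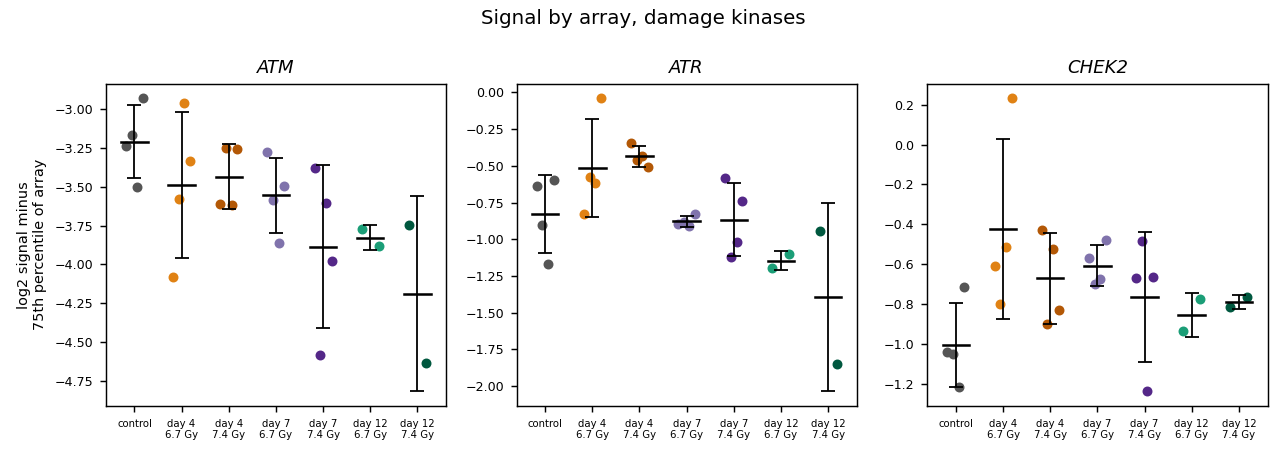
Signal of ATM, ATR and CHEK2 (log2, relative to the 75th percentile of the array) on each of the 24 arrays, by group; points are animals, the bar is the mean and the whiskers are 1 SD. The 4 day 12 animals lay below the 8 day 4 animals for ATR and below the 4 controls for ATM.

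Of the 7 genes that sense breaks or build the chromatin signal around them, only MDC1, the adaptor that binds phosphorylated histone at a break, passed anywhere. MDC1 was 0.23, 0.16, 0.19 and 0.10 in the controls. It was 0.10, 0.33, 0.17 and 0.53 on day 4 after the lower dose and 0.36, 0.68, 0.58 and 0.35 after the higher dose, where all 4 animals lay above all controls. On day 7 it was between -0.11 and 0.26, and on day 12 it was -0.12, 0.14, -0.03 and 0.34. The fall from day 4 was 0.27 ± 0.08 to day 7 (adjusted p = 0.0405) and 0.30 ± 0.10 to day 12 (adjusted p = 0.0489), with overlapping animals in both. Neither passed without the 2 arrays that stood apart (adjusted p = 0.0688 and 0.0749), and the 2 other probes of MDC1 did not pass (-0.29 and -0.01 from day 4 to day 12). The calls also ended in 9 and 19 of the 24 omissions of a single array. The other 6 genes were MRE11A, RAD50 and NBN, which form the complex that binds broken ends, the ubiquitin ligases RNF8 and RNF168, and TP53BP1, which favours end joining. The largest change among the 7 genes against the controls was that of RNF168 on day 12 after the lower dose (-0.42 ± 0.31, adjusted p = 0.712).

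Homologous recombination was represented by 6 genes, of which BRCA1 alone passed with all arrays in the fit. BRCA1, which with its partner BARD1 directs the processing of broken ends, was -2.75, -2.46, -2.55 and -2.45 in the controls. Day 4 values were -2.46, -2.49, -2.79 and -2.47 after the lower and -2.31, -2.49, -2.63 and -2.59 after the higher dose. Day 7 values were -2.36, -2.35, -2.03 and -1.88 after the lower and -1.84, -2.0, -2.16 and -2.59 after the higher dose. Day 4 thus overlapped the controls, and 7 of the 8 animals of day 7 lay above all of them. BRCA1 rose by 0.38 ± 0.11 from day 4 to day 7 (1.30-fold, adjusted p = 0.0231). The other tested probe of BRCA1 changed by 0.25 ± 0.17 and did not pass (adjusted p = 0.345), nor did the mean of both (0.31, adjusted p = 0.0798).

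Against the controls the day 7 changes of BRCA1 were 0.40 and 0.40, with adjusted p = 0.361 and 0.235. BARD1 changed by 0.33 and 0.51 in the same groups and by 0.37 ± 0.14 from day 4 to day 7, which did not pass (adjusted p = 0.0909). Without the 2 arrays that stood apart this change of BARD1 was 0.43 and passed (adjusted p = 0.042), as did that of PALB2 at the higher dose (0.40, adjusted p = 0.0361). The cycling cell sum was 24.9 to 29.3 in the controls, 27.9 to 73.5 on day 4 and 33.6 to 51.6 on day 7, with medians of 38.9 and 37.9 on day 4 and 41.2 and 38.5 on day 7 after the lower and the higher dose, and its part in these values was not tested. The other members were PALB2, which bridges BRCA1 to the recombinase loader, the recombinase cofactors XRCC2 and XRCC3, and RAD54L, a motor protein of strand exchange.

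RAD54L had the largest mean change of the recombination genes, with an error of the same size (-0.93 ± 0.92 on day 4 after the higher dose, adjusted p = 0.583). Of the 24 arrays, 22 lay between -4.48 and -3.03, while control replicate 2 was at -0.12 and replicate 4 of the lower dose on day 4 at 1.18. These 2 arrays were on the same slide, whose other 2 arrays were at -3.74 and -3.68. The control mean and the mean of the lower dose on day 4 each hold one of them, and the other 5 group means, from -3.95 to -3.28, hold neither.

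The Fanconi anaemia pathway, which unhooks crosslinked strands at replication forks, was represented by FANCI and FANCA. FANCI, one of the pair of proteins clamped onto DNA at a crosslink, was -0.73, -0.53, -0.54 and -0.58 in the controls. On day 4 it was 0.14, -0.56, 0.07 and 0.70 after the lower dose and 0.16, 0.09, 0.06 and -0.45 after the higher dose. All 4 animals of the higher dose and 3 of 4 of the lower dose lay above all controls. The single-dose changes of 0.68 ± 0.20 and 0.56 ± 0.20 did not pass (adjusted p = 0.0675 and 0.0947), and that of both doses averaged did (0.62 ± 0.17, 1.54-fold, adjusted p = 0.0314). With array position as a term it was 0.17 (adjusted p = 0.812). The call was also lost in 6 of the 24 omissions of a single array, among them each of the 4 controls (adjusted p up to 0.0993).

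By day 12 FANCI was -1.04 and -0.97 after the lower and -0.21 and -0.47 after the higher dose. The fall from day 4 to day 12 was 0.70 ± 0.17 (1.63-fold, adjusted p = 0.011), and the other probe of FANCI also fell, by 0.49 ± 0.16 (adjusted p = 0.0449). The means of the brightest probe went from 0.09 to -1.01 after the lower dose and from -0.04 to -0.34 after the higher dose. The higher-dose animals of day 12 overlapped those of day 4. Cycling cell sums ran from 27.9 to 73.5 on day 4 and from 25.6 to 39.0 on day 12, and their part in the values of FANCI was not tested. Without the 2 arrays that stood apart, the fall was 0.60 and passed (adjusted p = 0.0128), while the rise on day 4 was 0.47 and did not (adjusted p = 0.112). FANCA, a subunit of the core complex, did not pass in any comparison, with changes between -0.41 and 0.49 over the 6 groups.

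Non-homologous end joining was represented by 5 genes, none of which passed in any comparison. XRCC6, which encodes the Ku subunit that caps broken ends, was 5.21, 5.44, 5.34 and 5.46 in the controls and between 5.49 and 5.94 in all 20 irradiated animals. Its change was 0.19 to 0.34 over the 6 groups, and 0.29 ± 0.09 on day 4 with doses averaged (adjusted p = 0.0521). All irradiated animals thus lay narrowly above all controls, the highest of which was 5.46, by the brightest of 3 tested probes of XRCC6. The other probes of XRCC6 are not given here. Its partner XRCC5 changed by -0.14 to 0.12.

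LIG4, the ligase that closes the joined ends, changed by -0.56 and -0.38 on day 4, and by -0.47 ± 0.15 with doses averaged (adjusted p = 0.0564). Control replicate 1, one of the arrays that stood apart, had the highest LIG4 signal of all (-2.54), and without both of these arrays the change with doses averaged was -0.25 ± 0.14 (adjusted p = 0.302). DCLRE1C, the nuclease that opens hairpin ends, had the largest change of this set, -0.57 ± 0.20 on day 7 after the lower dose (adjusted p = 0.319). NHEJ1, a scaffold of the ligase complex, changed by -0.23 to 0.32.

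Base excision and single-strand break repair held 7 genes, of which APEX1, PARP1 and OGG1 passed in at least 1 comparison. APEX1 cuts DNA at sites that have lost their base. It was 1.61, 1.75, 1.73 and 1.97 in the controls. On day 4 it was 2.56, 2.56, 2.50 and 3.19 after the lower dose and 2.59, 2.49, 2.91 and 2.54 after the higher dose. All 8 irradiated animals lay above all controls.

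The rise of APEX1 on day 4 was 0.94 ± 0.17 (adjusted p = 0.00514) and 0.87 ± 0.17 (adjusted p = 0.00513). It was smaller on day 7, at 0.44 after both doses with adjusted p = 0.356 and 0.24, where 7 of 8 animals lay above all controls. By day 12 the changes were 0.02 and 0.11, and the 4 animals, between 1.73 and 2.02, overlapped the controls. The fall from day 4 was 0.46 ± 0.12 to day 7 (adjusted p = 0.0143) and 0.83 ± 0.14 to day 12 (adjusted p = 0.00125). All animals of days 7 and 12 lay below all of day 4, although the highest day 7 and the lowest day 4 value both round to 2.49.

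Markers of several cell types moved over the same days. The summed signal of 6 macrophage markers, 5 or 6 of which were above background on each array, was 49.6 to 66.0 in the controls, 42.0 to 84.4 and 72.8 to 85.7 on day 4, 40.2 to 55.9 on day 7 and 52.6 to 69.4 on day 12. Of the 5 tested, 0 and 1 rose on day 4 after the lower and the higher dose, 3 fell from day 4 to day 7 and 2 from day 4 to day 12. Of 13 cycling cell markers, 2 and 1 rose on day 4, 1 fell from day 4 to day 7 and 2 from day 4 to day 12. Of 7 enterocyte markers, 1 and 2 fell on day 4, 3 rose from day 4 to day 7 and 3 from day 4 to day 12. Of all probes, 1.38% and 3.55% were higher and 1.23% and 3.1% lower on day 4 after the lower and the higher dose. From day 4 to day 7, 7.63% were higher and 5.56% lower, and from day 4 to day 12, 10.7% and 6.8%. The blood marker HBB fell on day 4 after both doses, 1 of 3 B cell markers fell after each, and none of 7 T cell markers passed on that day, while 3 of the 7 fell from day 4 to day 7. The part of these cell types in the values of APEX1 and of the other genes that passed was not tested.

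With array position as a term in the fit, the day 4 changes of APEX1 were 0.80 (adjusted p = 0.0785) and 0.58 (adjusted p = 0.337), so that neither passed. The 2 animals of day 4 that shared position 1 with the controls, replicates 1 and 2 of the lower dose, were both at 2.56. They were on slides 5 and 6 and scan day 2, which held no control. Within each of the 4 slides that held a control, the day 4 animal, at position 2, lay above it, by 0.89, 1.44, 0.86 and 0.52. With the slide as a block both changes passed (adjusted p = 0.0199 and 0.0176). A day 4 animal thus differed from every control in slide or in position. Without the 2 arrays that stood apart, the day 4 changes were 0.73 (adjusted p = 0.0488) and 0.82 (adjusted p = 0.00714). After the lower dose the call was also lost with the methods' t-test (adjusted p = 0.178) and with a fit of only the arrays compared (adjusted p = 0.13). APEX1 has 1 probe.

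**Figure D3:**
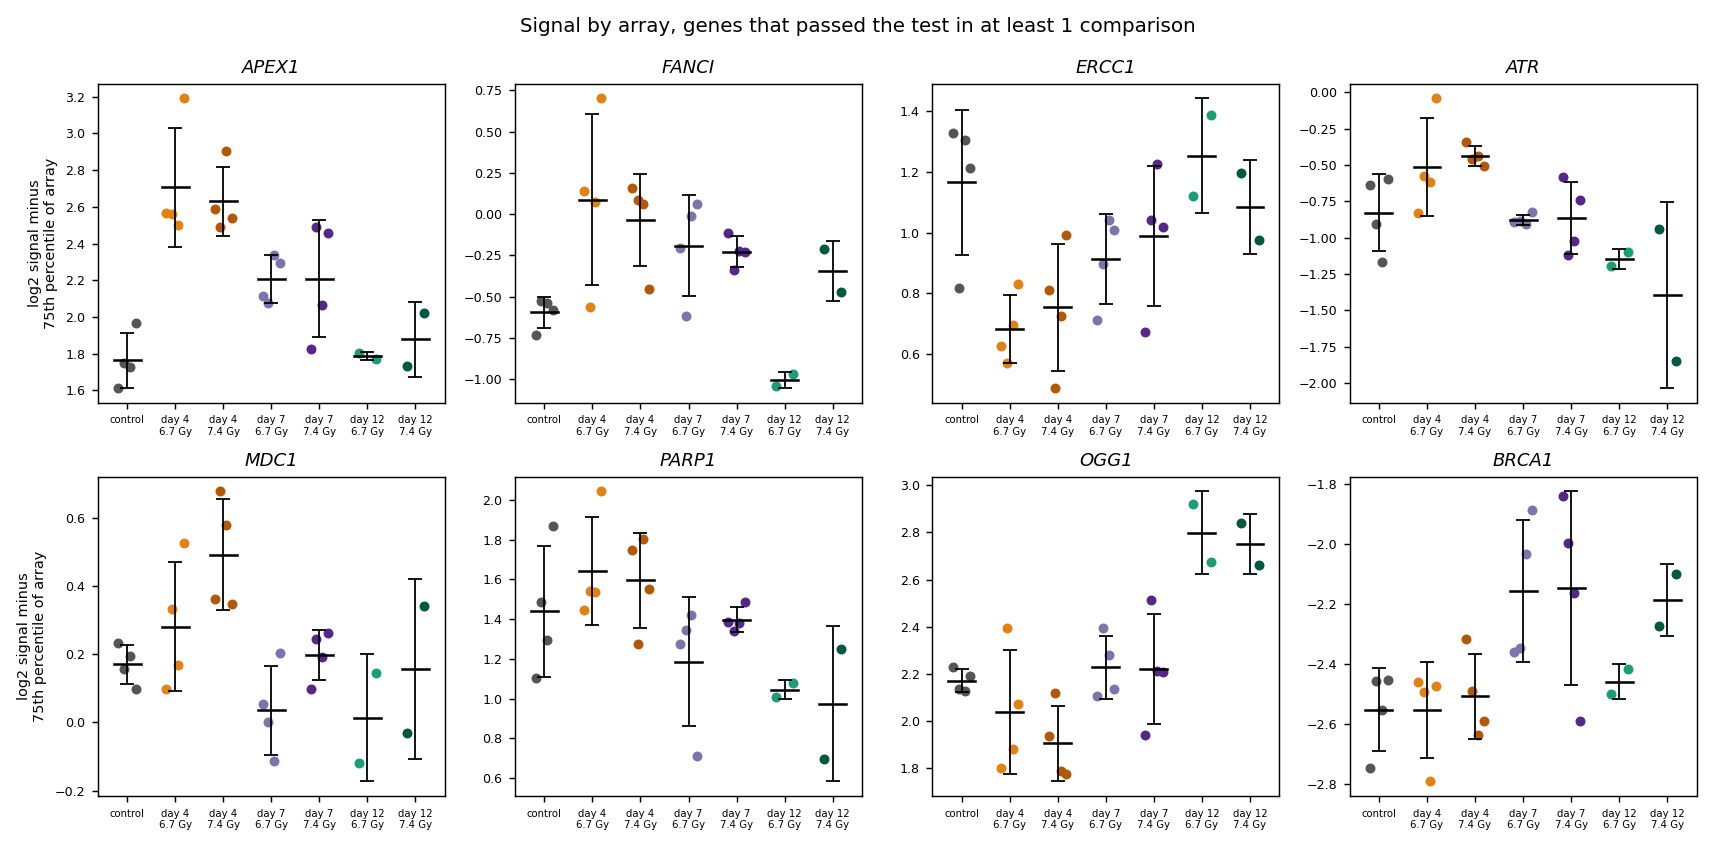
Signal (log2, relative to the 75th percentile of the array) of the 8 genes that passed in at least 1 comparison, by group; points are animals, the bar is the mean and the whiskers are 1 SD. APEX1 stood above the controls in all 8 animals of day 4, and OGG1 stood above all other animals in the 4 of day 12.

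XRCC1, the scaffold on which single-strand breaks are closed, was above the control mean in all 6 groups by 0.22 to 0.50, without passing. Its signals were 0.03, 0.55, 0.16 and 0.42 in the controls and 0.70 to 0.84 in the 4 animals of day 12, which lay above all controls (0.48 ± 0.14 with doses averaged, adjusted p = 0.181). UNG, which removes uracil from DNA, was also above the control mean in all 6 groups, by 0.09 to 0.35, and did not pass.

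PARP1, which detects nicks and marks them with poly(ADP-ribose), was 1.1, 1.49, 1.29 and 1.87 in the controls. It was 1.45, 1.54, 1.54 and 2.04 on day 4 after the lower dose and 1.75, 1.28, 1.80 and 1.55 after the higher dose. On day 12 it was 1.01 and 1.08 after the lower and 0.70 and 1.25 after the higher dose. These last 4 values lay below all of day 4 and overlapped the controls. PARP1 fell by 0.61 ± 0.16 from day 4 to day 12 (1.53-fold, adjusted p = 0.0157). The fall no longer passed without replicate 1 of day 12 after either dose, and over all single omissions it ran from -0.75 to -0.47 with adjusted p up to 0.118. Without the 2 arrays that stood apart the change was -0.54 (adjusted p = 0.0185). The other probe of PARP1 changed by -0.08 with an interval from -1.50 to 1.34, and the mean of both by -0.34 (adjusted p = 0.477). Its relative PARP2 changed by -0.19 to 0.16 over the 6 groups, and LIG3, the ligase of single-strand breaks, by -0.56 to 0.07, and neither passed in any comparison.

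OGG1, the glycosylase that removes oxidized guanine, had the largest rise between time points and also the clearest disagreement between probes. Its brightest probe gave 2.23, 2.13, 2.13 and 2.19 in the controls. On day 4 it was 1.80, 2.39, 1.88 and 2.07 after the lower and 1.94, 2.12, 1.79 and 1.78 after the higher dose. On day 12 it was 2.92 and 2.67 after the lower and 2.84 and 2.66 after the higher dose. All 4 animals of day 12 lay above every other animal, where the highest value was 2.51 on day 7.

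This probe of OGG1 rose by 0.80 ± 0.12 from day 4 to day 12 (1.75-fold, adjusted p = 0.000426). Against the controls the day 12 changes were 0.63 and 0.58 (adjusted p = 0.174 and 0.246), and 0.60 ± 0.14 with doses averaged (adjusted p = 0.0515). The 4 other probes of OGG1 did not pass. They changed by -0.26, -0.16, -0.04 and 0.11 from day 4 to day 12, with adjusted p between 0.312 and 0.88, and the intervals of all 4 lay below that of the brightest probe. With the mean of all 5 probes, OGG1 changed by 0.09 (adjusted p = 0.65). The rise is thus a measurement of 1 probe, and which transcripts the 5 probes match was not tested.

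**Figure D4:**
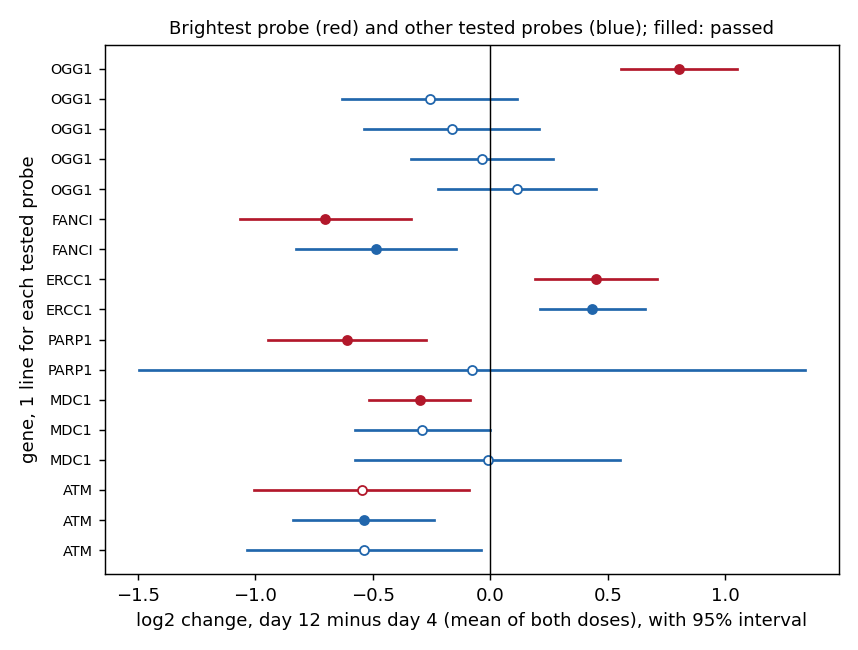
Log2 change from day 4 to day 12 (doses averaged) with its 95% interval for every tested probe of 6 genes; the brightest probe is red, the others are blue and lie below it in order of brightness for each gene, and filled points passed the test. Only the brightest of 5 OGG1 probes passed, as a rise, whereas both probes of FANCI passed as falls and both of ERCC1 as rises.

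Nucleotide excision repair, which removes bulky lesions, was represented by 5 genes. ERCC1, the partner of the nuclease ERCC4, was 1.33, 0.82, 1.31 and 1.21 in the controls. On day 4 it was 0.63, 0.57, 0.70 and 0.83 after the lower dose and 0.81, 0.49, 0.73 and 0.99 after the higher dose. All 8 animals lay below 3 of the 4 controls, and control replicate 2 lay among them. Neither single-dose change passed (-0.48 ± 0.14, adjusted p = 0.0694, and -0.41 ± 0.14, adjusted p = 0.0864). With doses averaged ERCC1 fell by 0.45 ± 0.12 (1.36-fold, adjusted p = 0.0305), and without the 2 arrays that stood apart the change was -0.42 and did not pass (adjusted p = 0.0938). With array position as a term it was -0.57 (adjusted p = 0.149), and without control replicate 1, 3 or 4 the call was also lost (adjusted p up to 0.108).

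On day 12 ERCC1 was 1.12 and 1.39 after the lower and 1.19 and 0.98 after the higher dose. It rose from day 4 to day 12 by 0.45 ± 0.12 (1.37-fold, adjusted p = 0.0189), and its second probe rose by 0.44 ± 0.11 (adjusted p = 0.0107). The call of the brightest probe was lost without replicate 2 of the lower or replicate 1 of the higher dose on day 12 (adjusted p up to 0.103). The enterocyte sum moved in the same direction over part of the groups, with medians of 606 in the controls, 482 and 491 on day 4, and 761 and 506 on day 12, and its part in the values of ERCC1 was not tested. The other 4 genes of the pathway did not pass. They were the helicase ERCC3, the nuclease ERCC4 and the damage recognition factors XPA and DDB1, and their changes lay between -0.32 and 0.40.

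Mismatch repair and translesion synthesis were represented by 1 gene each. MSH6, which recognises mispaired bases, changed by -0.17 to 0.24 and POLK, a polymerase that copies damaged templates, by -0.29 to -0.02 over the 6 groups. Neither passed in any comparison.

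**Figure D5:**
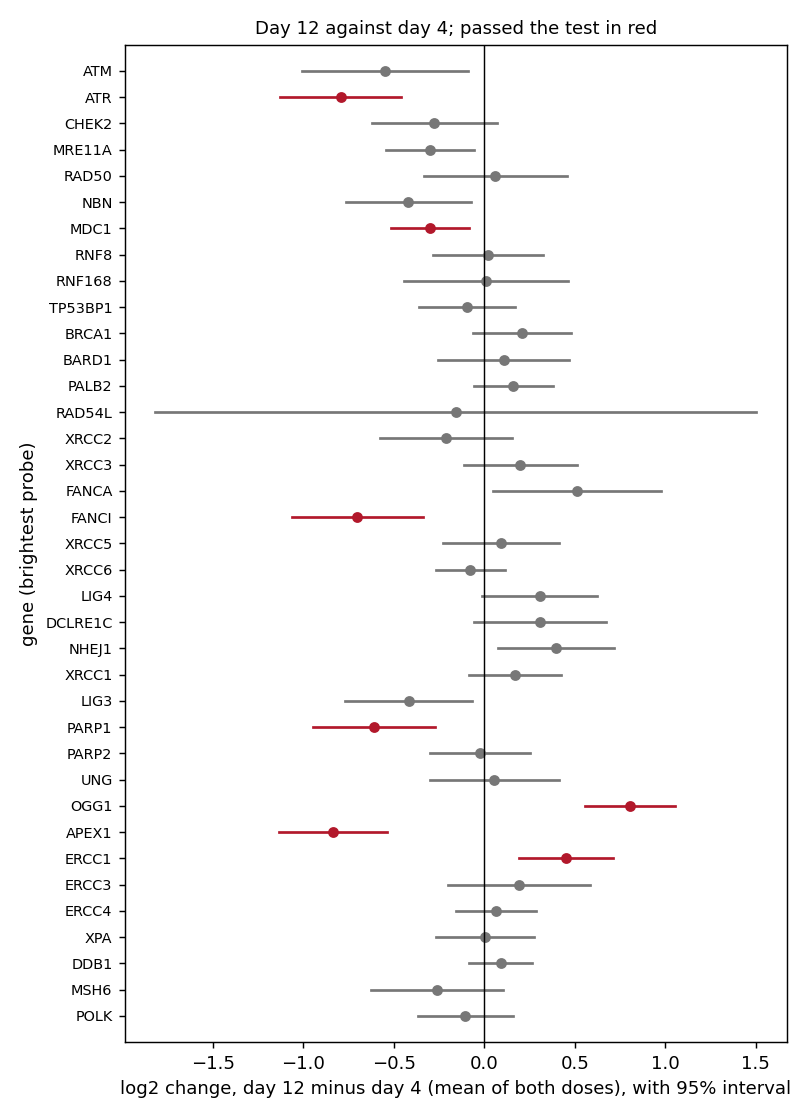
Log2 change of the 37 genes from day 4 to day 12 (mean of both doses) with its 95% interval; genes that passed limma's test are red. APEX1 (-0.83), ATR (-0.79), FANCI (-0.70), PARP1 (-0.61) and MDC1 (-0.30) fell, and OGG1 (0.80) and ERCC1 (0.45) rose.

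The residual SD between animals of a group ran from 0.10 (DDB1) to 1.4 (RAD54L) on the log2 scale, with a median of 0.25 over the members and 0.29 over all tested probes. Over the 6 irradiated groups, 7 genes had a mean above the controls in each (APEX1, CHEK2, DDB1, RNF8, UNG, XRCC1 and XRCC6), 2 had a mean below in each (ATM and POLK), and 28 had both signs. These groups share their 4 controls, so their signs are not independent, and the same counts over all probes were not made. The 8 members whose transcription is tied to DNA synthesis (BRCA1, BARD1, RAD54L, XRCC2, FANCA, FANCI, UNG and MSH6) had a median change of 0.18 and 0.09 on day 4, 0.19 and 0.20 on day 7, and 0.07 and 0.12 on day 12, after the lower and the higher dose. The corresponding medians of the other 29 members were 0.09 and 0.07, -0.05 and 0.04, and 0.12 and 0.00. The medians of the 13 cycling cell markers were 0.66 and 0.27 on day 4, 0.47 and 0.40 on day 7, and -0.03 and 0.36 on day 12.

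No difference between doses passed. With days 4 and 7 combined, 0 of 37 members and 0% of all probes differed between the higher and the lower dose in limma's test. At an unadjusted p under 0.05 there were 2 members (TP53BP1 with 0.26 ± 0.10 and MDC1 with 0.19 ± 0.08), beside 5.68% of all probes. The interval of the dose difference lay within 2-fold for 36 of 37 members, RAD54L being wider. The doses also differed in array position on days 4 and 7. On day 4 RAD50 differed by -0.61 (adjusted p = 0.877), and its 4 signals after the higher dose (-1.63, -1.53, -1.47 and -1.66) lay below the 4 after the lower dose (-0.92, -1.47, -0.81 and -0.65), although the nearest values both round to -1.47. On day 12 the largest dose differences were those of DCLRE1C (-0.74), XRCC3 (0.67) and FANCI (0.66), each with adjusted p = 0.769 and only 2 animals of each dose. The day 12 arrays of the lower dose were on slides 3 and 4 and scan day 1 and those of the higher dose on slides 5 and 6 and scan day 2, so that dose, slide and scan day cannot be told apart there.

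Other genes of DNA damage signalling and repair were taken from a second list, of which 64 of 86 were tested. On day 4, 2 were higher and none lower after the lower dose (1.38% and 1.23% of all probes), and 3 were higher and 1 lower after the higher dose (3.55% and 3.1%). RAD51C, a cofactor of the recombinase, rose by 0.71 ± 0.13 (adjusted p = 0.00914) and 0.83 ± 0.13 (adjusted p = 0.00159), and RPA1, a subunit of the complex that coats single strands, by 0.57 ± 0.13 and 0.43 ± 0.13. LIG1, the ligase of replication, rose after the higher dose by 0.67 ± 0.13, and PARP3, a relative of PARP1, fell by 0.63 ± 0.15. In limma's test none of the 64 passed on days 7 and 12 against the controls. There, 3, 7, 4 and 6 had an unadjusted p under 0.05, beside 9.36%, 13.4%, 8.98% and 8.13% of all probes. With doses averaged, 6 rose and 5 fell between day 4 and day 7, where 7.63% and 5.56% of all probes did. At a single dose, 0 passed after the lower dose (1.03% of all probes), with 12 at an unadjusted p under 0.05 (19.1%), and 2 rose and 1 fell after the higher dose (3.79%). From day 4 to day 12, with doses averaged, 1 rose and 6 fell, where 10.7% and 6.8% of all probes did. PARP3 rose by 1.03 ± 0.13 (adjusted p = 0.000151), and among those that fell were RAD51C by 1.08 ± 0.12 (adjusted p = 3.29e-05) and CLSPN, an adaptor of the ATR checkpoint, by 1.05 ± 0.25 (adjusted p = 0.00819).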

How the data were processed

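Total RNA of the ileum of 24 animals was labelled with a single dye and hybridized to Agilent Rhesus Macaque arrays. Per the file headers, Feature Extraction 11.0.1.1 gave each spot a background-subtracted intensity. The authors took log2 of these signals and subtracted the 75th percentile of the array, and the deposited normalized table further subtracts the median of each probe over the 24 arrays, so these log2 values differ from the ones used here only by a constant for each probe. Values were computed again from the deposited scanner intensities in the same way, over 43603 probes that are not controls. Symbols (23674 probes) are those the deposited files give. No array had a saturated spot. The labels' protocol text names 21 days where titles, the day field and the study's methods name day 12, which was used.

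The tests took the 36108 probes that at least 1 group had well above background on all its arrays. One limma fit (limma 3.58.1, R 4.3.3) with a mean for each of the 7 groups gave all comparisons, with p-values adjusted by Benjamini-Hochberg within each comparison, and it was tested on simulated data. The study's methods also ask for a 2-fold change, which was applied as an alternative. Every member that passed in at least 1 comparison is given with its values, as are ATM, ATR and CHEK2; the others are given by role with the most extreme member. The members and lists were chosen with earlier results of these data known. Comparisons of the averaged doses with the controls, the scan day as a block and the omission of 2 arrays together were chosen after seeing the data. Other alternatives were the deposited normalized values, normexp background correction (offset 50, on median spot signals) and quantile normalization, 2 other filters, limma with trend, the methods' t-test, the arrays compared alone, slide, array position and replicate number as terms, the mean of a gene's probes, and omission of each array. No sequence of a probe or promoter was used here. Each array is 1 animal, so p-values reflect the spread between animals, and precision is limited by the number of arrays.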

Additional observations from a re-analysis of the deposited data

Results flagged for a closer look

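For 15 of the genes described above, 75 groups of 4 animals were checked for an animal far from the other 3 (Dixon's test of the gap against the range), and 7 were found. Chance gives about 1 in 20. RAD54L accounted for 2, with -0.12 in control replicate 2 (next value -3.69) and 1.18 in replicate 4 of the lower dose on day 4 (next value -3.84). The same array of day 4 was far above its group for APEX1 (3.19, next value 2.56) and PARP1 (2.04, next value 1.54). The others were low: BRCA1 at -2.79 in replicate 3 of the lower dose on day 4 (next value -2.49), FANCI at -0.45 in replicate 4 of the higher dose on day 4 (next value 0.06), and RNF168 at -3.28 in replicate 4 of the higher dose on day 7 (next value -2.88). No difference between doses passed the test for a member.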

How the results depend on the processing

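With the deposited normalized values no count and no call changed. From day 4 to day 12, APEX1, ATR and ERCC1 passed in every alternative fit other than single omissions, FANCI in all but that of only the arrays compared (adjusted p = 0.0609), and OGG1 in all but that of the mean of its probes. MDC1 lost its call to day 12 in 8 of these fits. With a 2-fold change in addition, 0 members passed on day 4 at the lower dose, the higher dose and both averaged, from day 4 to day 7 and from day 4 to day 12. On day 4 after the lower and the higher dose, the count was 2 and 2 with normexp (APEX1 with FANCI or XRCC1), 2 and 2 with quantile normalization (APEX1 and XRCC6), 3 and 2 with slide as a block, 2 and 2 with scan day as a block (APEX1 and FANCI), and 0 and 0 with array position. After the lower dose it was 0 with the methods' t-test and 0 with only the arrays compared. On day 4 with doses averaged it was 5 with only probes above background on all arrays, 1 with only the arrays compared, 0 with array position and 1 without the 2 arrays that stood apart. From day 4 to day 7 it was 2 without a filter and 2 with the mean of a gene's probes, and 1 at the higher dose without those 2 arrays (PALB2). On day 12 with doses averaged 1 passed with quantile normalization, with the stricter filter and with limma's trend (OGG1 in each), and 1 with the mean of probes (ATM). The causes were not tested.

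ATR on day 7 was near 0 and changed sign: 0.026 with normexp and 0.011 without the 2 arrays after the lower dose, and 0.010 with slide, 0.030 with scan day and 0.022 without the 2 arrays after the higher dose. CHEK2 on day 4 after the higher dose was -0.23 with array position. Leaving out each array in turn gave 1 to 2 members on day 4 after either dose, 1 to 4 with doses averaged, 0 to 1 from day 4 to day 7 at the higher dose, 2 to 4 with doses averaged, 4 to 9 from day 4 to day 12 (4 without replicate 1 of the higher dose on day 12) and 0 to 1 on day 12 with doses averaged. ATR on day 7 then ran from -0.17 to 0.026 and from -0.15 to 0.045. Where day 12 has 1 array left at a dose, the fit takes its spread from the remaining groups.

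Replicate numbers mark no shared origin in the labels. Deviations of same-numbered arrays from their group means had a median correlation of 0.03 (16 of 62 pairs over 0.1). For arrays of different numbers it was -0.01 (30 of 182 pairs over 0.1). With the replicate block, 5 members passed from day 4 to day 12 (MDC1 and PARP1 did not, adjusted p = 0.0748 and 0.0529), 4 from day 4 to day 7, and 1 on day 4 after each dose. The position term could be fitted only for day 4 against controls and for the dose, and the t-test only for pairs of groups. Only 2 animals per dose on day 12 limit what could be detected there.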
